A study of Mus musculus with 10 samples.

Results

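The COUP-TF nuclear receptors Nr2f1, Nr2f2 and Nr2f6 were followed across 4 cell populations sorted from differentiating mESCs. The members are the 3 rows, of 38924 gene rows in every count file, whose Ensembl identifier carries the GENCODE M21 symbol Nr2f1, Nr2f2 or Nr2f6, and all 3 had a row in all 10 files. The family was chosen by the difference of Nr2f1 between Foxa2+ and Foxa2- cardiac mesoderm (CM) in these same libraries, so that difference is given as a description only. All cells came from 1 mESC line, Foxa2-hCD4, in which the Foxa2 locus drives a truncated human CD4 that serves as the sorting marker, and all were collected on the fifth day of differentiation. Foxa2+ CM (n = 3) and Foxa2- CM (n = 3) were Kdr+ Pdgfra+ cells with and without hCD4 from a cardiac differentiation with low Activin A, BMP4 and VEGF. Haematopoietic mesoderm (n = 2) was the Kdr-high population sorted from cardiac cultures, and endoderm (n = 2) was the hCD4+ population from a protocol with high Activin A. All had been kept as mESCs with Lif and the inhibitors PD and CHIR before differentiation, and no group carried a deletion.

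COUP-TFs are orphan members of the nuclear receptor superfamily that mostly repress transcription. They bind repeats of the half-site AGGTCA, as do the retinoic acid receptors with their RXR partners, and can compete with them for DNA or for RXR. Nr2f1 (COUP-TFI) is best known from the patterning of the brain and the neural crest, Nr2f2 (COUP-TFII) from venous and lymphatic endothelium and from the atria, and Nr2f6 is a broadly transcribed relative.

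In mm10, Nr2f1 (ENSMUSG00000069171.7) lies on chromosome 13 from 78188973 to 78199757, Nr2f2 (ENSMUSG00000030551.7) on chromosome 7 from 70351944 to 70366735, and Nr2f6 (ENSMUSG00000002393.8) on chromosome 8 from 71374123 to 71381960, all on the minus strand. Nr2f1 and Nr2f2 are alike enough that 1 stretch of 59 coding bases is identical in both. It is shown because reads of 50 nt that fall inside it cannot be assigned to either gene. In Nr2f1 it lies at chr13:78198284-78198342 and in Nr2f2 at chr7:70360052-70360110, both coding exons, and it encodes part of the zinc finger DNA-binding domain:
Nr2f1 and Nr2f2, shared coding stretch: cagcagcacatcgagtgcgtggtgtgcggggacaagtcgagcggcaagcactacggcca
This stretch accounts for 10 of the 5090 different 50-base words in Nr2f1 transcripts and 10 of 8582 in Nr2f2, so nearly all of each gene is distinguishable from its paralogue, and Nr2f6 shares no such word with either.

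The windows examined upstream of annotated starts differed widely in CpG. In the RefSeq table (GRCm38.p6), the 250 bases before the Nr2f6 start hold 42 CpG. Those before the Nr2f2 start farthest upstream hold 1, against a median of 6 over 32851 windows of that length. The Nr2f2 transcript whose first exon holds the shared coding stretch starts further downstream. The sequence before that start was not examined, so the value of 1 does not describe every Nr2f2 promoter. The bases outside annotated exons of each gene are shown as these are the windows with the most and the least CpG, with every CpG in capitals. The Nr2f2 window is chr7:70366747-70366996 and the Nr2f6 window is chr8:71381961-71382202, both read on the minus strand:
Nr2f2: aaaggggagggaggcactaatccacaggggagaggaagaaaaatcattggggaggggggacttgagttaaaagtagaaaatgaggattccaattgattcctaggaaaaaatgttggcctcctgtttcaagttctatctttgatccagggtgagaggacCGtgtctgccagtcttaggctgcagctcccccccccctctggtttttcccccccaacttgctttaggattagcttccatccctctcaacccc
Nr2f6: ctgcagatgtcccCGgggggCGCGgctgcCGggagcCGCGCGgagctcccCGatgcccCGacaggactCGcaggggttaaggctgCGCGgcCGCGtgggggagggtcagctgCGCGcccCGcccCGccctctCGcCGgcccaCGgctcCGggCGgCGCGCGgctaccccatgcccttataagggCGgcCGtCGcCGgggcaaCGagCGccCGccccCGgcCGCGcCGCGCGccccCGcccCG
The window before the longer Nr2f1 model holds 22 CpG and the window before its second start holds 2. Both lie inside exons of Nr2f1 in GENCODE M21 and are not shown. None of these windows contains AGGTCA on either strand, which 14% of all windows do.

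Libraries held 10926284 to 17470126 counts on genes, so the 3 counts taken as the limit of detection correspond to 0.172 to 0.275 CPM (counts scaled to the TMM-normalized library size). Defining markers were highest in the groups named for them. The 10 endoderm markers summed to 1664 to 1804 CPM in endoderm and to 230 to 300 CPM elsewhere, the 11 haemato-endothelial markers to 1813 to 2171 CPM in haematopoietic mesoderm and to 47.5 to 702 CPM elsewhere, and the 8 cardiac mesoderm markers to 1019 to 1228 CPM in CM, 703 to 903 CPM in haematopoietic mesoderm and 127 to 224 CPM in endoderm. Labels do not state that replicates were separate cultures, so p-values measure only the spread between these samples. In sorted bulk RNA, fewer cells with a transcript and less of it per cell cannot be told apart.

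Levels of the 3 receptors were as follows. Nr2f1 had its highest level in Foxa2+ CM and its lowest in endoderm. Nr2f2 was near the limit of detection in both CM groups and above it in endoderm and haematopoietic mesoderm. Nr2f6 was transcribed in all 4 groups, with a modestly higher level in endoderm.

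Nr2f1 had 30, 40 and 65 counts in the Foxa2+ CM libraries, or 2.19, 2.31 and 3.67 CPM. In Foxa2- CM it had 8, 10 and 21 counts, or 0.495, 0.794 and 1.19 CPM. In haematopoietic mesoderm it had 22 and 12 counts (1.38 and 0.945 CPM), and in endoderm 1 and 4 counts (0.0932 and 0.335 CPM). All 3 Foxa2+ CM libraries lay above the other 7, both endoderm libraries lay below them, and the ranges of Foxa2- CM and haematopoietic mesoderm overlapped. The 3 Foxa2+ libraries averaged 2.72 ± 0.818 CPM (SD, n = 3). The Foxa2- libraries averaged 0.825 ± 0.346 CPM (SD, n = 3).

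As a description of the contrast that led to the choice of the family, the fitted log2 fold change of Nr2f1 from Foxa2- to Foxa2+ CM was 1.71. The level in Foxa2+ CM was 4.43, 2.92 and 3.09 times that in the Foxa2- library of the same number. Summed counts, 135 against 39, gave a ratio of 3.30 (95% counting interval 2.30 to 4.85, which covers counting error only). Leaving out each library in turn moved the log2 fold change between 1.41 and 2.12. Over all 15284 genes tested between the 2 CM groups with edgeR's quasi-likelihood test, 3.81% were called higher in Foxa2+ CM and 2.66% lower, and nothing about the members is read from those shares.

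Nr2f2, the venous and atrial receptor, had 2, 8 and 6 counts in Foxa2+ CM (0.146, 0.463 and 0.338 CPM) and 3, 4 and 5 counts in Foxa2- CM (0.186, 0.318 and 0.282 CPM). These 6 values overlapped, and the ratio of summed counts, 1.27, had a counting interval of 0.565 to 2.95, so counts this low could not resolve a difference between them. Nr2f2 had 10 and 44 counts in endoderm, or 0.932 and 3.68 CPM, and 28 and 19 counts in haematopoietic mesoderm, or 1.76 and 1.50 CPM. All 4 of these libraries lay above all 6 CM libraries. The endoderm libraries differed most from each other, and the haematopoietic pair lay between them.

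Nr2f6 levels in Foxa2+ CM were 34.7, 30.8 and 30.5 CPM (475, 532 and 541 counts), with a mean of 32.0 ± 2.36 CPM (SD, n = 3). In Foxa2- CM they were 32.6, 28.7 and 33.5 CPM (526, 362 and 594 counts), with a mean of 31.6 ± 2.53 CPM (SD, n = 3). Haematopoietic mesoderm, at 35.4 and 31.7 CPM, overlapped both CM groups, whereas endoderm, at 41.4 and 57.1 CPM, lay above every other library. The fitted log2 fold change between the CM groups was 0.02.

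**Figure D1:**
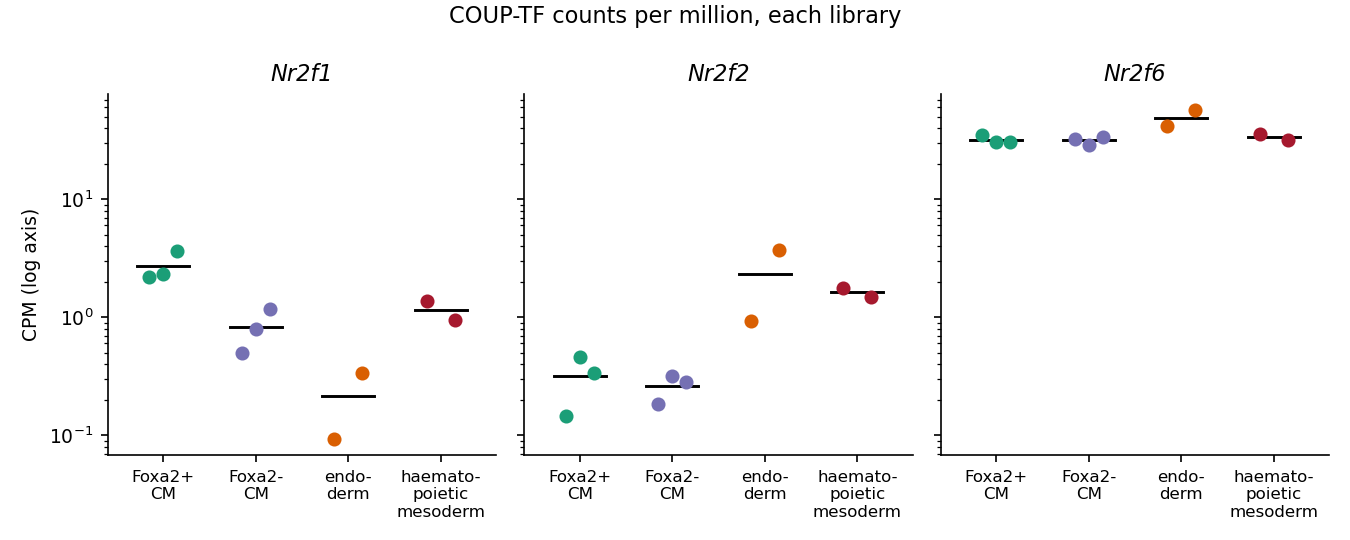
CPM of Nr2f1, Nr2f2 and Nr2f6 on a shared log axis in each sorted group, with 1 point per library (3 in each CM group, 2 in each other group) and a bar at the group mean. Nr2f1 is highest in Foxa2+ CM (2.19 to 3.67 CPM) and lowest in endoderm, Nr2f2 is lowest in both CM groups, and Nr2f6 lies between 28.7 and 57.1 CPM throughout.

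Levels of different genes were compared per exonic length. As CPM per kilobase, Nr2f6 made up 94.9% of the family's summed level in Foxa2+ CM, 98.2% in Foxa2- CM, 98.3% in endoderm and 96.4% in haematopoietic mesoderm. Nr2f1 made up 4.77% ± 1.57 (SD, n = 3) in Foxa2+ CM and 1.50% ± 0.576 (SD, n = 3) in Foxa2- CM, 0.131% and 0.334% in the endoderm libraries, and 2.20% and 1.69% in the haematopoietic libraries. Nr2f2 made up 0.331% ± 0.179 (SD, n = 3) and 0.285% ± 0.0898 (SD, n = 3) in Foxa2+ and Foxa2- CM, 0.772% and 2.17% in endoderm, and 1.65% and 1.58% in haematopoietic mesoderm. At exonic length, the Nr2f1 share exceeded the Nr2f2 share in each of the 8 mesoderm libraries, by little in haematopoietic mesoderm, and the Nr2f2 share was the larger in both endoderm libraries. With the length of the longest transcript, the order in haematopoietic mesoderm turned, with mean shares of 2.27% for Nr2f1 and 2.42% for Nr2f2. Among 16026 expressed genes, Nr2f6 ranked above 57.3% of genes per length in Foxa2+ CM and above 69.3% in endoderm, whereas Nr2f1 in Foxa2+ CM ranked above 15.5% and Nr2f2 in endoderm above 9.09%. Even at their highest, Nr2f1 and Nr2f2 were therefore among the weakly detected transcripts.

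**Figure D2:**
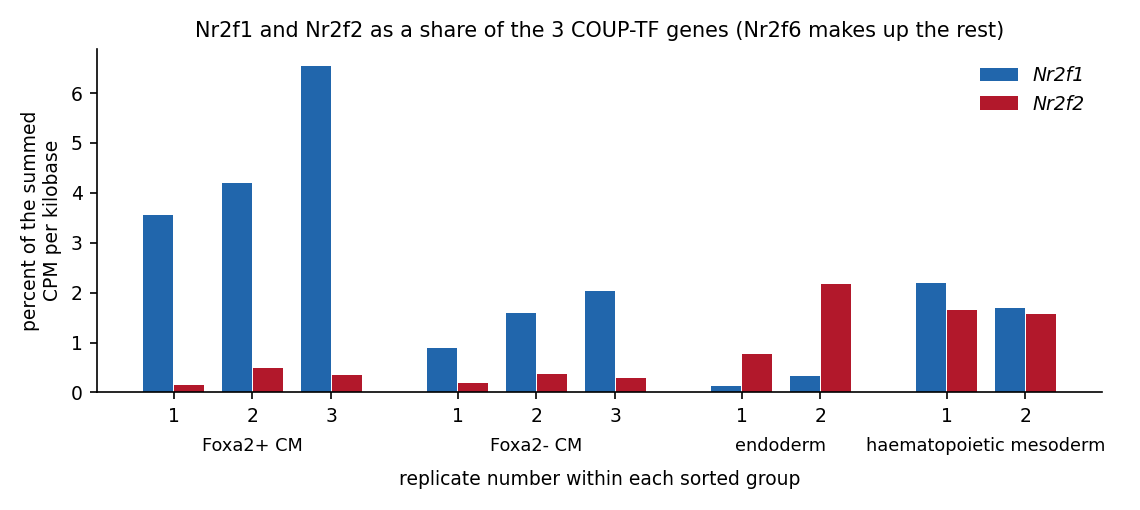
Share of Nr2f1 (blue) and Nr2f2 (red) in the summed CPM per exonic kilobase of the 3 genes, in percent, for each library by group and replicate number, with bars starting at 0. Nr2f1 reaches 3.56% to 6.55% in Foxa2+ CM, and with this length Nr2f2 exceeds Nr2f1 in both endoderm libraries and in no other.

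Counting limits differ between the members. Nr2f6 shares 1622 exonic bases with Ocel1, on the opposite strand, which had 313 to 566 counts per library. The library kit does not mark strand, and the strand setting of the counting is not given in the sources used here. Of unique reads, 72.2% to 80.5% were counted on genes, more than a strand-specific count of such a library would give. With strand ignored, reads of the overlap would be set aside as ambiguous. Nr2f6 counts would then come from 1361 of its 2983 exonic bases. The Nr2f6 shares above would be too low and those of Nr2f1 and Nr2f2 too high. With lengths free of shared exonic bases, Nr2f1 and Nr2f6 made up 2.30% and 97.5% in Foxa2+ CM. Ocel1 had a log2 fold change of 0.26 between endoderm and CM with an adjusted p of 0.103 (edgeR). Nr2f1 overlaps the antisense gene A830082K12Rik by 123 exonic bases, a gene with 0 to 14 counts per library, and Nr2f2 overlaps B130024G19Rik by 643.

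The comparisons with endoderm and with haematopoietic mesoderm ask how the family differs between lineages. They were tested with edgeR's quasi-likelihood test over 16180 genes in 1 model of all 10 samples, with Benjamini-Hochberg adjustment. CM denotes the average of both CM groups. The comparisons with CM share the same 6 CM samples. Nr2f1 was in the filter through its CM and haematopoietic libraries and Nr2f2 through its endoderm and haematopoietic libraries, so both passed it only where they were high.

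In endoderm against CM, Nr2f2 and Nr2f6 were called higher, in a comparison that called 20.0% of all genes higher and 17.3% lower. Nr2f2 rose by 2.97 on the log2 scale (SE 0.50, adjusted p = 0.00143), and without the low-count filter by 2.93 (adjusted p = 0.000274). Nr2f6 rose by 0.63 (SE 0.13, adjusted p = 0.00409), a 1.55-fold difference. For Nr2f1 the libraries of both CM groups were used to choose the family, so its log2 fold changes against CM are descriptions with no test. They were -2.74 (SE 0.59) against the CM average, -3.59 (SE 0.59) against Foxa2+ CM and -1.88 (SE 0.65) against Foxa2- CM alone. Summed counts gave an endoderm to CM ratio of 8.09 for Nr2f2 (counting interval 5.03 to 13.3). For Nr2f1 the CM to endoderm ratio was 8.30 (counting interval 3.49 to 25.9, 5 counts in endoderm). Both intervals cover counting error only and are no test. They leave out the spread between libraries, which for Nr2f2 was wide in endoderm (10 and 44 counts).

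Both calls were lost without endoderm replicate 2, where the log2 fold change of Nr2f2 was 1.64 (adjusted p = 0.059) and that of Nr2f6 0.36 (adjusted p = 0.0837), in edgeR. Nr2f2 and Nr2f6 passed the test against either CM group. Summed neural markers were 331 to 356 CPM in endoderm and 8.43 to 65.6 CPM elsewhere. Nearly all of that sum was Otx2 and Sox2, with means of 245 and 96.7 CPM in endoderm, which are also genes of early embryonic cells. Neurog2 stayed under 3 counts in both endoderm libraries, as did Dlx2, which fell by 3.17 against CM (adjusted p = 0.000898, edgeR). The part of these genes in the differences of Nr2f2 and Nr2f6 was not tested.

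In haematopoietic mesoderm against CM, 1 member was called, Nr2f2, against 13.7% of all genes called higher and 12% lower. Nr2f2 rose by 2.46 (SE 0.51, adjusted p = 0.00701; 2.43 and adjusted p = 0.00248 without the filter, edgeR). It passed the test whichever library was left out, with log2 fold changes from 2.29 to 2.64. The log2 fold changes of Nr2f1 against CM are descriptions, for the same reason as above. They were 0.49 (SE 0.46) against Foxa2- CM, -0.36 (SE 0.41) against the CM average and -1.22 (SE 0.43) against Foxa2+ CM. Nr2f6 had a log2 fold change of 0.08 (SE 0.13, adjusted p = 0.708, edgeR).

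In endoderm against haematopoietic mesoderm, Nr2f1 fell by 2.37 (SE 0.67, adjusted p = 0.022, edgeR; -2.38 and adjusted p = 0.018 without the filter) and Nr2f6 rose by 0.55 (SE 0.16, adjusted p = 0.0265, edgeR), in a comparison with 16.4% of genes called higher and 16.2% lower. Nr2f2 had a log2 fold change of 0.51 (SE 0.56, adjusted p = 0.529, edgeR), which turned to -0.80 (adjusted p = 0.351, edgeR) without endoderm replicate 2. The Nr2f1 call was lost without endoderm replicate 1 (-1.80, adjusted p = 0.133) and without haematopoietic replicate 1 (-2.07, adjusted p = 0.0868). The Nr2f6 call was lost without endoderm replicate 2 (0.30, adjusted p = 0.206) and without haematopoietic replicate 2 (0.48, adjusted p = 0.11).

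**Figure D3:**
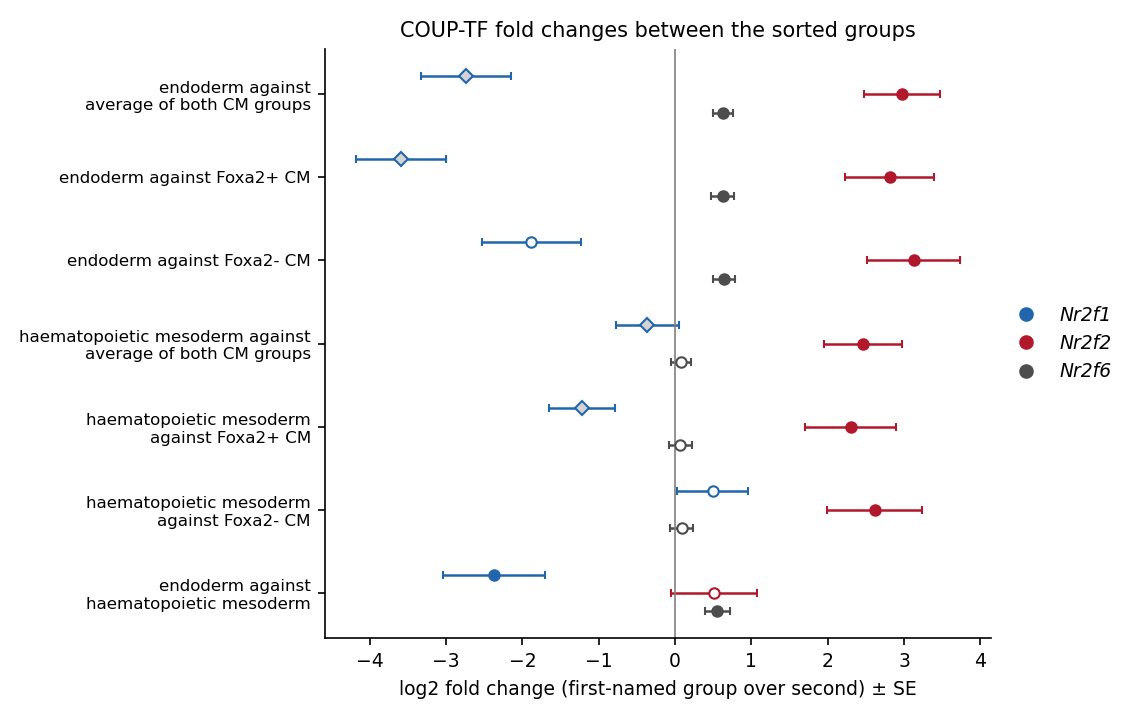
Log2 fold change with its standard error for Nr2f1 (blue), Nr2f2 (red) and Nr2f6 (grey) in each comparison, from the edgeR fit of all 10 samples, with filled points where the adjusted p was under 0.05 and grey diamonds where no test is given because the choice of the family used those libraries. Nr2f1 lies at -2.74 and Nr2f2 at 2.97 in endoderm against the average of both CM groups, while in haematopoietic mesoderm Nr2f2 alone is filled. The open Nr2f1 points against Foxa2- CM are descriptions as well, since the choice also used those libraries.

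Closely related receptors were compared in the same fits. Of 9 other NR2 and RXR receptors, 6 passed the filter. None was called between the CM groups by edgeR (2 lower at an unadjusted p under 0.05, and 1 lower by DESeq2, Rxra, at -0.31, adjusted p = 0.0256) or between haematopoietic mesoderm and CM (1 higher at an unadjusted p under 0.05, 0 by DESeq2), and 3 were called higher in endoderm than in CM. These were Hnf4a, a hepatocyte and gut endoderm regulator (log2 fold change 3.98, adjusted p = 0.00274), and the RXR genes Rxrg (1.78, adjusted p = 0.0165) and Rxra (0.69, adjusted p = 0.00194). Of all genes, 20.0% were called higher and 17.3% lower in endoderm against CM. These shares were 13.7% and 12% in haematopoietic mesoderm against CM, and 3.81% and 2.66% between the CM groups. With 6 genes tested, the lack of calls in the latter comparisons is not read as a trait of the list. The list's median in endoderm against CM was 0.39, beside 0.01 over all genes. The Hnf4a call was lost without endoderm replicate 2 (2.49, adjusted p = 0.0865, edgeR) and the Rxrg call without either endoderm library.

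Among 15 genes for proteins that partner COUP-TFs, the cofactor Zfpm2 (Fog2) was the only one called between the CM groups. Over all genes, 3.81% were called higher and 2.66% lower, so 1 call among 15 is not read as a trait of the partners. Zfpm2 was already named by the authors among genes higher in Foxa2+ CM, and was measured by quantitative PCR. They also detected its protein in Foxa2 lineage-traced cells of mouse embryos. Their RNAseq result came from these same libraries, so the call given here is not independent of it. The mean of Zfpm2 was 24.6 ± 7.19 CPM (SD, n = 3) with hCD4 and 4.11 ± 1.22 CPM (SD, n = 3) without. It rose by 2.57 on the log2 scale (adjusted p = 0.00439, edgeR) and kept its call whichever CM library was left out. In endoderm against CM, 5 of the 15 were called higher and 3 lower, with a median of 0.02 beside 0.01 over all genes and against 20.0% and 17.3% of all genes, so the share called lower was near that of all genes. Zfpm2 fell by 3.82 (adjusted p = 0.000205), to 0.586 and 0.839 CPM. Bcl11a and Bcl11b, zinc finger repressors first found as COUP-TF interactors, rose by 1.44 (adjusted p = 0.00117) and 1.77 (adjusted p = 0.000568). In haematopoietic mesoderm against CM, 4 were called higher and 2 lower (13.7% and 12% of all genes), with a median of 0.08 beside 0.02 over all genes, and Bcl11a fell by 2.52 (adjusted p = 0.000528, edgeR) while Zfpm2 was not called.

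Genes of the retinoic acid pathway and anterior Hox genes were examined beside Nr2f1 because both groups can respond to retinoic acid, as can COUP-TF genes. The choice of the family rested on genes of both groups being lower in Foxa2+ CM while Nr2f1 was higher, so their values between the CM groups are given as a description, with no test. Of 18 retinoic acid genes, 15 had a log2 fold change below 0 in Foxa2+ against Foxa2- CM, with a median of -0.33 beside 0.00 over all genes. Aldh1a2, which makes retinoic acid, was at -2.02, Meis1 and Meis2, homeobox genes that respond to it, at -1.80 and -1.57, and Crabp1, which binds retinoic acid in the cell, at -1.30. The genes above 0 were Aldh1a3 (0.97), another enzyme of retinoic acid synthesis, Crabp2 (0.62), another binding protein, and the receptor Rara (0.08). All 8 Hox genes of groups 1 to 5 were below 0, with a median of -1.62, and Hoxb1 (-3.26), Hoxb5 (-3.12) and Hoxd3 (-3.08) were the lowest.

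In endoderm, where Nr2f1 was lowest, the CM average holds libraries that the choice used. Values of both lists against CM are therefore also descriptions, with no test. The median of 19 retinoic acid genes was 0.03, beside 0.01 over all genes. Stra6, the retinol transporter, rose by 6.54, Dhrs3, a retinal reductase, by 2.88 and Rarb, a receptor, by 2.83 (1.44 without endoderm replicate 2). Cyp26b1, which degrades retinoic acid, fell by 4.85, and Aldh1a2 fell by 2.31. Cyp26a1, another degrading enzyme, averaged 119 CPM in Foxa2+ CM, 134 CPM in Foxa2- CM and 168 CPM in endoderm. For Cyp26b1 these means were 6.95, 8.86 and 0.260 CPM. The 8 Hox genes had a median of -3.19 in endoderm against CM. Among them, Hoxd1 was at -3.92, and at -3.77 without endoderm replicate 1. Hoxb5 had 0 counts in both endoderm libraries.

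**Figure D4:**
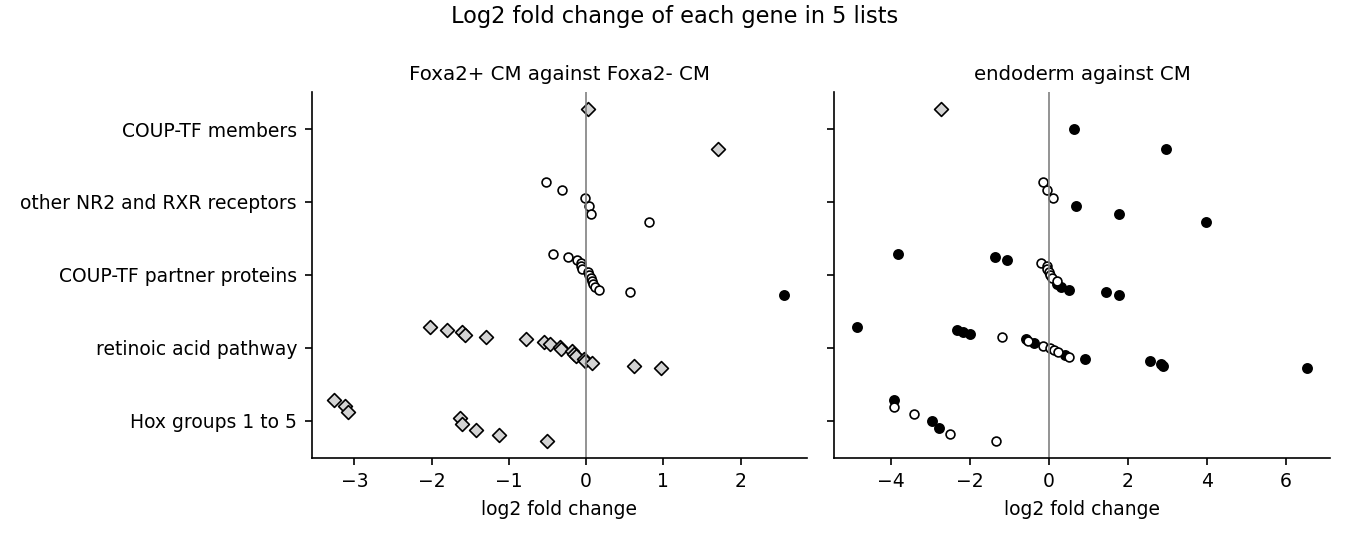
Log2 fold change of each tested gene of 5 lists in Foxa2+ against Foxa2- CM (left) and in endoderm against CM (right), with filled points where the edgeR adjusted p was under 0.05; Hoxb5, at 0 counts in endoderm, is left out on the right, and grey diamonds carry no test because the choice of the family used those values. Nr2f1 lies at 1.71 on the left, where 15 of 18 retinoic acid genes and all 8 Hox genes lie below 0. Filled points of retinoic acid and Hox genes on the right are not read as tests, since the choice also used those CM libraries.

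In haematopoietic mesoderm, where Nr2f2 rose, genes of the venous and lymphatic list and of the arterial list were called higher. Of 6 tested venous and lymphatic genes, 5 were called higher than in CM and none lower by edgeR (0 at an unadjusted p under 0.05, 0 by DESeq2). The 5 included the lymphatic receptor Flt4 (3.87, adjusted p = 0.000238, edgeR). Prox1, a lymphatic regulator that is also transcribed in endoderm, was another (2.24, adjusted p = 0.00296, edgeR). Ephb4, of the same list, was not called. Its means were 161 CPM in Foxa2+ CM, 165 CPM in Foxa2- CM and 192 CPM in haematopoietic mesoderm. Of 12 tested arterial and Notch genes, 8 were called higher and none lower (again 0 by either criterion), among them Gja4 (4.08, adjusted p = 0.00076) and the ligand Dll4 (3.51, adjusted p = 0.000204, edgeR). Of all genes tested in this comparison, 13.7% were called higher and 12% lower. The medians of the venous and arterial lists were 1.83 and 1.42, beside 0.02 over all genes. Summed haemato-endothelial markers were 1813 to 2171 CPM there against 393 to 702 CPM in CM, and their part in the Nr2f2 difference was not tested.

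Across the 10 libraries, the log2 CPM of Nr2f1 correlated with that of Nr2f2 at Pearson r = -0.409 and with that of Nr2f6 at -0.585, and Nr2f2 with Nr2f6 at 0.690. The libraries fall into 4 sorted groups and these values are descriptions. Among 12205 genes averaging 50 counts or more per library, the 5 profiles most like that of Nr2f1 included those of Fhod3 (r = 0.971), AW551984, Katnal1 and Synj2. Fhod3, a formin of the cardiac sarcomere, had means of 117 CPM in Foxa2+ CM, 55.5 in Foxa2- CM, 19.0 in endoderm and 57.9 in haematopoietic mesoderm. The closest profiles to Nr2f2 were those of Bach1 (r = 0.964), Fndc3a, Gdpd1, Stk35 and Gse1, and to Nr2f6 those of Hsd11b2 (r = 0.956), Fbrsl1, Jkamp, Celsr2 and Wdtc1. By rank correlation, 1 of the 5 for Nr2f1 stayed among its closest 5, and none of those for Nr2f2 or Nr2f6. With the 4 group means, none stayed for Nr2f1 or Nr2f2 and 1 stayed for Nr2f6. With a prior count of 0.5, 2 stayed for Nr2f1, 4 for Nr2f2 and 5 for Nr2f6.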

How the data were processed

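RNAseq of 10 sorted samples was used, with groups taken from the sample labels. The authors made libraries with a kit that does not mark strand (TruSeq RNA v2), read 50 nt from 1 end, and used STAR 2.5.0a (mm10), Picard for the removal of duplicates and HTSeq 0.6.0 for counting. The deposited values are raw counts per Ensembl gene. Removing duplicates without molecular identifiers can compress differences of highly expressed genes. The 5 summary rows of each file (63.5% to 72.3% of its total) were left out, and 37607 of 38924 identifiers matched GENCODE M21, a later release than the authors' annotation.

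From the counts, TMM factors, the default expression filter (minimum count 10), quasi-likelihood tests and adjusted p-values (called under 0.05) were computed with edgeR 4.0.16 in R 4.3.3, over all 10 samples, or over the 6 CM samples for Foxa2+ against Foxa2- CM. DESeq2 1.42.0 was an alternative. Each SE was taken from F, as the size of the log2 fold change over the root of F. Pipelines were tested on simulated data. Replicate numbers were not treated as pairs, since the labels do not say that same-numbered samples share a culture. Deviations from the group mean correlated at 0.480, 0.0855 and 0.580 for same-numbered CM samples. For differently numbered ones they correlated at -0.547 to 0.285, so pairing is not excluded. Replicates differed beyond sampling noise.

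The members, the gene lists and the tests were chosen with earlier results of these data known. Named genes were the members, the 5 genes of highest correlation with each (prior count 2, mean of at least 50 counts), and the called genes of each list with the largest changes, at most 6, with a mean of at least 10 counts. Alternatives were other size factors, no filter, a 2-fold limit, a replicate block, single CM groups, other lengths and leaving out each library. A length without bases shared with an overlapping gene was added after seeing the data. Some genes that this rule names are not reported here.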

Additional observations from a re-analysis of the deposited data

How the results depend on the processing

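Leaving out 1 library at a time gave log2 fold changes from -3.92 to -2.18 for Nr2f1, 1.64 to 3.59 for Nr2f2 and 0.36 to 0.81 for Nr2f6 in endoderm against CM. The ranges were -3.54 to -1.80, -0.80 to 1.16 and 0.30 to 0.75 in endoderm against haematopoietic mesoderm, and -0.0015 to 0.13 for Nr2f6 in haematopoietic mesoderm against CM. Genes called ranged from 3684 to 6925 in endoderm against CM and from 234 to 1701 between the CM groups. Against Foxa2- CM alone, Nr2f1 was at -1.88 in endoderm and at 0.49 in haematopoietic mesoderm, the opposite sign to that against the CM average. Against Foxa2+ CM alone, Sox17 in haematopoietic mesoderm changed sign, to -0.024. A 2-fold limit removed both Nr2f6 calls (0.63 and 0.55) and left 3061, 1930, 3098 and 460 genes called in endoderm against CM, haematopoietic mesoderm against CM, endoderm against haematopoietic mesoderm and between the CM groups. With lengths free of shared exonic bases, the shares of Nr2f1 and Nr2f6 were 2.30% and 97.5% in Foxa2+ CM. Those of Nr2f1, Nr2f2 and Nr2f6 were 0.707%, 0.131% and 99.2% in Foxa2- CM, and 0.926%, 0.751% and 98.3% in haematopoietic mesoderm. With the longest transcript, Nr2f2 was at 0.431% in Foxa2- CM and 2.42% in haematopoietic mesoderm, where Nr2f6 was at 95.3% and Nr2f1, at 2.27%, came below Nr2f2. These shares moved by construction, since the lengths differ. DESeq2, other size factors and no filter changed no member's call.

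A replicate block led to 2556 genes called between the CM groups, against 990 without it and 288 with all 10 samples in 1 model; the block changed no member's call. The cause was not tested. Nr2f1 and Nr2f2 rest on at most 65 and 44 counts per library, which limits their precision.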
